A study of Mus musculus with 14 samples.

Results

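The serpins, the family of serine protease inhibitors and their non-inhibitory relatives, were followed in mouse liver after 1 week of interleukin 13 (IL-13). Members were all genes whose symbol is Serpin followed by a clade letter between a and i, without Serpinh1, the collagen chaperone. Illumina mouse BeadChips carried probes for 48 such genes among 16593 genes with a symbol: 16 of clade A, 25 of clade B, 2 each of clades F and I, and 1 each of clades C, D and G. A gene was tested when its probe was detected above the negative controls (detection p under 0.05) on at least 3 arrays, which 21 serpins did among 9711 genes.

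RNA of whole liver was hybridised on 14 arrays in 4 groups. Alb-Cre mice received a plasmid expressing IL-13 (n = 3) or the green fluorescent protein EGFP (n = 4), and wild-type (WT) mice received the IL-13 plasmid (n = 3) or the EGFP plasmid (n = 4). All 4 groups underwent hydrodynamic delivery, in which a large volume injected rapidly by the tail vein brings plasmid into hepatocytes, and were killed 1 week later. The series title names an IL4Ra Flox allele together with Alb Cre, in which the albumin promoter drives Cre in hepatocytes, while the sample labels give only Alb-Cre+ or wild type, and neither the age nor the sex of the mice. No probe carried the symbol Il4ra, so loss of the receptor was not analysed here, and non-hepatocyte cells of Alb-Cre livers would keep it. The labels do not say that each array held a separate mouse, so a p-value reflects the spread between arrays, which may be technical.

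As background, an inhibitory serpin offers its reactive centre loop to a protease as bait, is cleaved, and then traps the enzyme in a covalent complex. Hepatocytes secrete most of the plasma serpins, which restrain coagulation, fibrinolysis, complement and neutrophil proteases, and a few members have lost inhibition and carry hormones instead. Clade B serpins mostly stay inside cells, where they guard against the cell's own or incoming proteases.

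Between 45.0% and 51.6% of the 25697 probes were detected per array, and mean intensity ranged between 283 and 354 units. The arrays lay on 2 slides that each held all 4 groups. The Y-linked transcript Eif2s3y was detected on 4 arrays, WT IL-13 replicate 3 and all 3 Alb-Cre IL-13 arrays, and the X-inactivation transcript Xist on the other 10. Sex-linked signal therefore cannot be told apart from IL-13 within Alb-Cre arrays, and WT IL-13 replicate 3 stood apart from replicates 1 and 2, also in Reg3b, a secreted lectin (log2 intensity 10.07, against 4.24 and 4.83). Retnla, an IL-13 target, was detected on all 6 IL-13 arrays and on 0 of the 8 EGFP arrays. The Il13 probe was dim but detected on all 14 arrays, with log2 intensity 4.46 to 4.92 on IL-13 arrays and 4.55 to 5.39 on EGFP arrays. It therefore showed no rise with the IL-13 plasmid, and whether IL-13 exposure was equal between genotypes was not tested. Below, levels are normalized log2 intensities, log2 changes carry limma's standard error after ±, and adjusted p-values are limma's, with Benjamini-Hochberg adjustment over all 9711 genes.

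IL-13 moved serpins up and down in WT livers, and fewer passed the test in Alb-Cre livers. In Alb-Cre livers 5 of the 21 tested serpins rose and 1 fell, together 28.6%, where 18.9% of all genes tested were called (11.1% higher and 7.83% lower). In WT livers 7 rose and 9 fell, together 76.2%, where 40.7% of all genes were called (21.5% higher and 19.2% lower). The arrays of IL-13 and EGFP did not overlap for 12 members in Alb-Cre livers, where this held for 28.9% of all genes, and for 14 members in WT livers, where it held for 43.5%. Since a gene can enter the test through the group in which it is high, the 17 members detected on all 14 arrays were also counted: 5 rose and 0 fell in Alb-Cre livers, and 6 rose and 8 fell in WT livers. Of the 6904 genes detected on all arrays, 20.1% were called in Alb-Cre livers (10.3% higher and 9.82% lower) and 46.7% in WT livers (23% higher and 23.8% lower).

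By clade, 4 of 12 clade A genes changed in Alb-Cre livers (4 up, 0 down), 2 of 4 clade B genes (1 up, 1 down), and 0 of the 5 genes of clades C, D, F and G, of which 1, Serpinf1, had an unadjusted p under 0.05 in limma. In WT livers the counts were 10 of 12 in clade A (6 up, 4 down), 2 of 4 in clade B (1 up, 1 down) and 4 of 5 in clades C to G (0 up, 4 down). The median log2 change of clade A was 0.55 in Alb-Cre livers and 0.37 in WT livers, that of clade B was -0.12 and -0.15, and that of clades C to G was -0.27 and -0.77, where the median over all genes was -0.02 and 0.00077. The clades' counts were not tested against each other. Within slide 1, 4 members were called in Alb-Cre livers, where 8.76% of all genes were, and 14 in WT livers, where 27.5% were. The 4 were Serpina10, Serpina1a, Serpina7 and Serpinb6a, of which only Serpina7 and Serpinb6a were called in Alb-Cre livers over both slides. Slide 2 holds 1 Alb-Cre IL-13 and 1 WT IL-13 array, so calls are not counted there. The Alb-Cre changes of these members on slide 2 were 0.25, 0.59, 1.10 and 0.65, in that order. With slide as a block the counts were 7 in Alb-Cre and 15 in WT livers, where 19.5% and 41.5% of all genes were called. The member added in Alb-Cre livers was Serpinf1, of clade F (adjusted p = 0.0429). The Alb-Cre count was the less steady. Without Alb-Cre EGFP replicate 4 it was 3 of 21, near the share of all genes called there, 15.2%. Without WT IL-13 replicate 3 it was 11, where 21.3% of all genes were called. That array is outside the comparison and enters the shared spread. With Eif2s3y detection as a covariate, 5 members were called in Alb-Cre livers (1 up, 4 down), where 8.39% of all genes were, and 1 of them, Serpinb6a, was among the 6. Here and below that covariate rests on WT IL-13 replicate 3 against replicates 1 and 2, the only group in which Eif2s3y detection varied. It therefore cannot separate sex from other traits of that array.

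**Figure D1:**
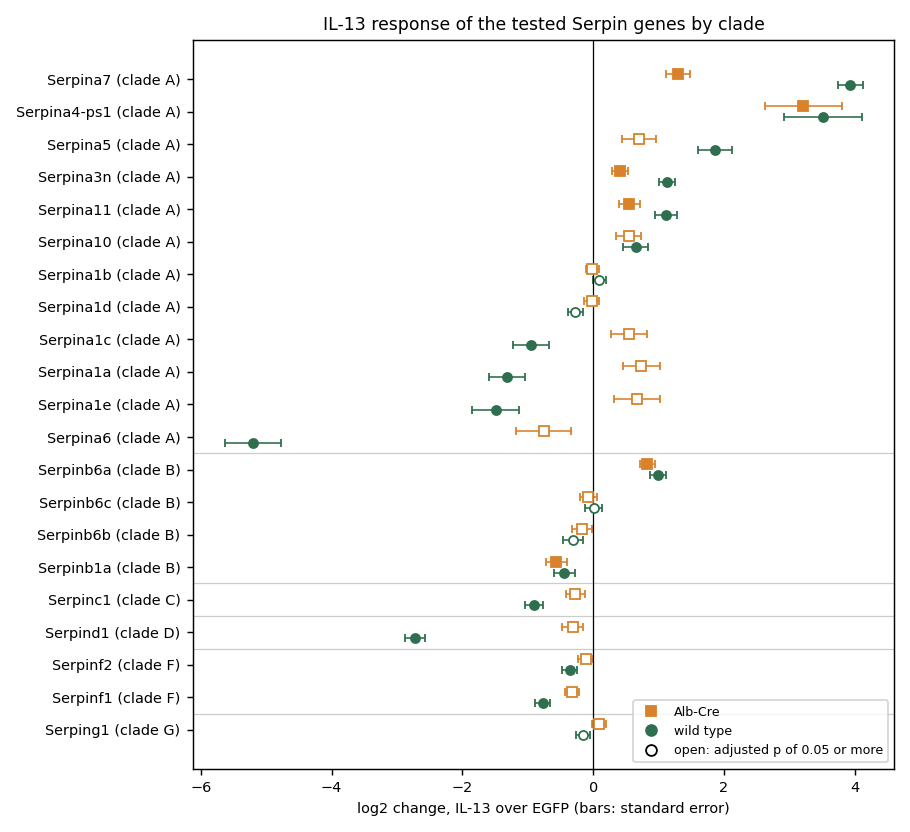
Log2 change of IL-13 over EGFP (horizontal axis, with standard error bars) for the 21 tested serpins, grouped by clade, in Alb-Cre livers (orange squares) and WT livers (green circles). Filled symbols have an adjusted p under 0.05. The WT values spread between -5.20 and 3.93, the Alb-Cre values between -0.76 and 3.21, and the 5 genes of clades C to G have open symbols in Alb-Cre livers.

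The hormone carriers had the largest fall and the largest rise in WT livers. Serpina6 is corticosteroid-binding globulin, which carries glucocorticoids in plasma and inhibits no protease. Its log2 intensity was 10.204, 12.89 and 11.91 on the Alb-Cre IL-13 arrays and 11.99, 12.57, 12.36 and 12.79 on the Alb-Cre EGFP arrays. In WT livers it was 7.997, 7.21 and 7.16 with IL-13 and 12.83, 12.42, 12.79 and 12.598 with EGFP. Every WT IL-13 array lay far below all others, and the Alb-Cre IL-13 arrays were scattered, with replicate 1 lowest and replicate 2 above all Alb-Cre EGFP arrays. In Alb-Cre livers the log2 change was -0.76 ± 0.43 (adjusted p = 0.247), and -0.03 (adjusted p = 0.965) without Alb-Cre IL-13 replicate 1. In WT livers Serpina6 fell by 36.9-fold (log2 change -5.204 ± 0.43, adjusted p = 1.15e-07). The responses differed by 4.45 ± 0.602 (Alb-Cre minus WT, adjusted p = 0.000189). That difference lost its call in 1 of 25 other settings, within slide 1 (4.29, adjusted p = 0.0739).

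Serpina7, thyroxine-binding globulin, carries thyroid hormone and is the X-linked member of clade A. It reached 9.02, 9.403 and 8.85 on the Alb-Cre IL-13 arrays, against 7.59, 8.09, 7.52 and 7.99 on the Alb-Cre EGFP arrays. On the WT arrays it reached 11.05, 10.66 and 11.43 with IL-13, against 6.88, 7.21, 7.17 and 7.21 with EGFP. IL-13 and EGFP arrays did not overlap in either genotype, and the WT IL-13 arrays were the highest of all. The gene rose 2.46-fold in Alb-Cre livers (log2 change 1.298 ± 0.19, adjusted p = 0.000133) and 15.2-fold in WT livers (3.93 ± 0.19, adjusted p = 2.56e-10). The responses differed by -2.63 ± 0.27 (adjusted p = 1.26e-05). With the Eif2s3y covariate the Alb-Cre change was 0.72 (adjusted p = 0.198) and the difference -3.02 (adjusted p = 2.78e-05).

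The Serpina1 genes encode the mouse alpha-1 antitrypsins, plasma inhibitors whose best known target is neutrophil elastase. They are near-identical neighbours on chromosome 12, so a probe for one copy may bind the transcripts of another, and the values below are those of probes rather than of fully separated genes. Their likeness extends upstream of the transcript. In the RefSeq promoter table (GRCm38.p6, 250 bases before to 50 after the annotated start) all 5 tested copies hold GTTAAT, an arm of the palindromic motif of the hepatocyte factor HNF1. The windows below, all read 5′ to 3′ on the minus strand, were aligned on that motif (capitals) and lie upstream of the annotated start, and are shown because copies with nearly the same sequence had different probe responses.
Serpina1a, in GRCm38.p6 at chr12:103863625-103863710: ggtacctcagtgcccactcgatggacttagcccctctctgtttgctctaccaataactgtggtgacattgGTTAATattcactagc
Serpina1c, chr12:103904962-103905047: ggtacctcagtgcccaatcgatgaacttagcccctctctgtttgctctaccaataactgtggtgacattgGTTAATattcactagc
Serpina1e, chr12:103956960-103957045: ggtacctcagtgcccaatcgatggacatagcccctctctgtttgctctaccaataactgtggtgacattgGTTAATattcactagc
Serpina1b, chr12:103738200-103738285: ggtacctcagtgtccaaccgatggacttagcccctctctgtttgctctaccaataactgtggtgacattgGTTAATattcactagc
Serpina1d, chr12:103773634-103773719: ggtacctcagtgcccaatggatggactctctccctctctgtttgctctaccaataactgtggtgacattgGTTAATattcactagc

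Over these 86 bases the 10 pairs of copies differed at 2 to 7 positions, and the 3 copies that fell in WT livers, Serpina1a, Serpina1c and Serpina1e, differed from each other at 2. The motif began 21, 27 and 78 bases before the annotated start of Serpina1a, Serpina1c and Serpina1e, and 26 and 16 bases before that of Serpina1b and Serpina1d. GTTAAT, searched on both strands, was held by 7.1% of the 32851 promoters in the table and by 6 of the 16 tested serpins with an entry there, counting a serpin when any of its entries held it. The sixth was Serpina7, whose window of the same length lies on the X chromosome, minus strand, and has the motif 57 bases before the start.
Serpina7, chrX:139085278-139085363: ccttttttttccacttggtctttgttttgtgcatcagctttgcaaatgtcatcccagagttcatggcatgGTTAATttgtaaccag

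On the arrays, Serpina1a, Serpina1c and Serpina1e were lowest on WT IL-13 replicates 1 and 2. Serpina1e measured 9.67, 9.26 and 9.71 on the Alb-Cre IL-13 arrays and 8.82, 8.86, 8.88 and 8.94 on the Alb-Cre EGFP arrays, and 6.79, 6.83 and 8.89 on the WT IL-13 arrays and 8.79, 9.17, 9.14 and 8.88 on the WT EGFP arrays. WT IL-13 replicate 3 lay inside the range of the WT EGFP arrays, and all 3 Alb-Cre IL-13 arrays lay above every other array. Serpina1a followed the same order, with 11.98, 11.83 and 11.62 on the Alb-Cre IL-13 arrays against 11.05, 11.21, 11.13 and 10.92 with EGFP, and 9.49, 9.12 and 10.91 on the WT IL-13 arrays against 11.12, 11.22, 11.11 and 11.19 with EGFP. Here replicate 3 was also below the WT EGFP arrays, by a small margin. Serpina1c had 13.14, 12.89 and 12.77 on the Alb-Cre IL-13 arrays against 12.72, 12.22, 12.24 and 12.36 with EGFP, and 10.78, 10.89 and 12.34 on the WT IL-13 arrays against 12.24, 12.52, 12.14 and 12.24 with EGFP, again with replicate 3 among the EGFP arrays.

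In Alb-Cre livers the log2 changes were 0.67 ± 0.35 for Serpina1e (adjusted p = 0.217), 0.74 ± 0.28 for Serpina1a (adjusted p = 0.08) and 0.55 ± 0.28 for Serpina1c (adjusted p = 0.196), with IL-13 arrays above EGFP arrays for each. They turned sign with the Eif2s3y covariate, to -1.41, -0.87 and -0.97 (adjusted p = 0.00172, 0.0252 and 0.0331). In that fit the covariate rests on WT IL-13 replicate 3 against replicates 1 and 2. Without that array the Alb-Cre changes passed the threshold as increases (0.67, 0.74 and 0.55, adjusted p = 0.00135, 0.000343 and 0.0107).

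In WT livers Serpina1e fell by 1.49 on the log2 scale (± 0.35, adjusted p = 0.0029), Serpina1a by 1.32 (± 0.28, adjusted p = 0.00129) and Serpina1c by 0.95 (± 0.28, adjusted p = 0.0113). Without replicate 3 these WT changes were -2.19, -1.85 and -1.45. Within slide 1 they were -2.17, -1.86 and -1.55, and within slide 2, whose only WT IL-13 array is replicate 3, they were -0.12, -0.24 and 0.15, none past the threshold. Serpina1c also lost its call without WT IL-13 replicate 1 (adjusted p = 0.0744) or replicate 2 (adjusted p = 0.0733). The second Serpina1a probe gave -1.17 ± 0.28.

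The difference of responses was 2.16 ± 0.4996 for Serpina1e, 2.06 ± 0.396 for Serpina1a and 1.497 ± 0.39 for Serpina1c (adjusted p = 0.01, 0.00302 and 0.0193), and 0.78, 0.99 and 0.49 with the covariate (adjusted p = 0.0424, 0.00841 and 0.239). Whether sex-linked regulation has a part in the Serpina1 values was not tested.

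Serpina1b and Serpina1d, also alpha-1 antitrypsins, gave no call. Serpina1d measured 14.01, 14.03 and 14.13 on the Alb-Cre IL-13 arrays against 14.17, 14.19, 13.95 and 14.03 with EGFP, and 13.56, 13.71 and 14.05 on the WT IL-13 arrays against 14.01, 14.08, 14.08 and 14.03 with EGFP. WT IL-13 replicates 1 and 2 were again the lowest, and the WT change was -0.28 ± 0.11 (adjusted p = 0.0636). It passed the threshold without replicate 3 (-0.42, adjusted p = 0.00543). Serpina1b measured 14.26, 14.23 and 14.17 on the Alb-Cre IL-13 arrays against 14.26, 14.24, 14.17 and 14.26 with EGFP, and 14.47, 14.47 and 14.15 on the WT IL-13 arrays against 14.28, 14.28, 14.202 and 14.28 with EGFP. Its probe was the brightest of the array on WT IL-13 replicates 1 and 2, and no Serpina1b or Serpina1d probe ranked lower than 44th of 25697 on any array, so quantile normalization leaves these probes little room to move up. The WT change was 0.095 ± 0.095 (adjusted p = 0.464), and the other Serpina1b probe gave -0.25 ± 0.11 (adjusted p = 0.0832 over all 14109 kept probes).

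**Figure D2:**
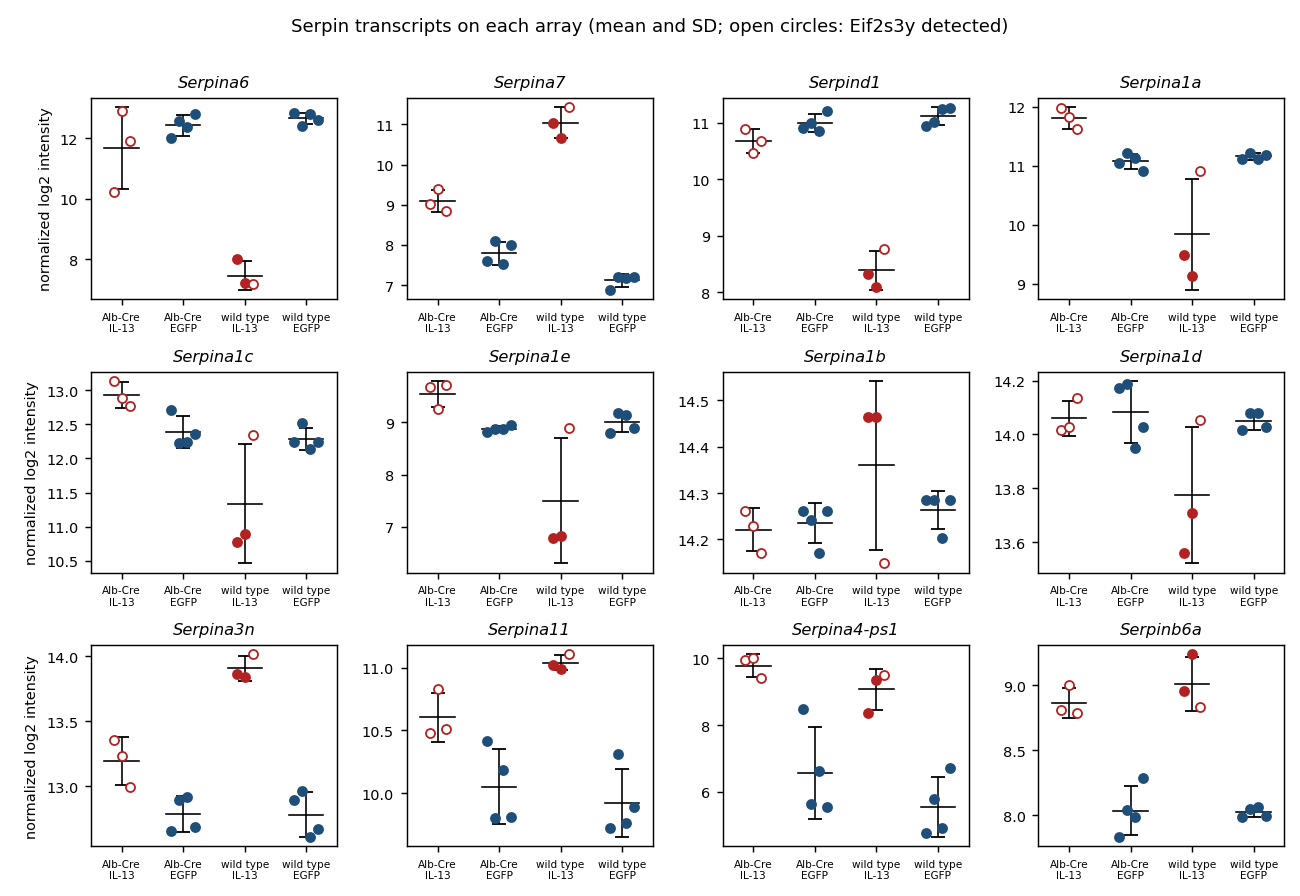
Normalized log2 intensity on each array for 12 serpins, with Alb-Cre IL-13, Alb-Cre EGFP, WT IL-13 and WT EGFP running left to right (red for IL-13, blue for EGFP). Points are arrays, black lines and bars are the mean and SD, and open circles mark the 4 arrays with Eif2s3y detected. Serpina6 and Serpind1 are low on all 3 WT IL-13 arrays, while Serpina1a, Serpina1c and Serpina1e are lowest on the 2 filled ones. Vertical axes differ between panels and do not start at 0.

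Other clade A genes rose. Serpina3n, an acute phase inhibitor related to human antichymotrypsin, measured 13.35, 13.24 and 12.99 on the Alb-Cre IL-13 arrays against 12.66, 12.899, 12.92 and 12.68 with EGFP. On the WT IL-13 arrays it measured 13.86, 13.84 and 14.01, against 12.89, 12.96, 12.61 and 12.67 with EGFP. Every IL-13 array exceeded the EGFP arrays of its genotype, and WT IL-13 arrays exceeded Alb-Cre IL-13 arrays. The increase was 0.404 ± 0.12 in Alb-Cre livers (adjusted p = 0.0284) and 1.12 ± 0.12 in WT livers (adjusted p = 2.35e-06), and the responses differed by -0.72 ± 0.17 (adjusted p = 0.0122). With the Eif2s3y covariate the Alb-Cre change was 0.24 (adjusted p = 0.588), while the difference remained called (-0.83, adjusted p = 0.0258). The Alb-Cre call was lost in 9 of 26 other settings. The difference lost its call in 1 of 25, within slide 1 (-0.41, adjusted p = 0.342).

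Serpina4-ps1, annotated as a transcribed pseudogene, had the largest increase in Alb-Cre livers among the 21. Its values were 9.95, 10.003 and 9.398 on the Alb-Cre IL-13 arrays against 8.48, 5.63, 6.61 and 5.56 with EGFP. In WT livers they were 8.36, 9.36 and 9.49 with IL-13 against 4.77, 5.798, 4.93 and 6.73 with EGFP. The EGFP arrays varied widely, with Alb-Cre EGFP replicate 1 near the lowest IL-13 arrays. The increase was 9.26-fold in Alb-Cre livers (log2 change 3.21 ± 0.59, adjusted p = 0.00108) and 11.4-fold in WT livers (3.51 ± 0.59, adjusted p = 0.000187). The 95% interval of the difference ran between -2.08 and 1.48, so a difference within that range could not be resolved. With the Eif2s3y covariate the Alb-Cre change was 2.58 (adjusted p = 0.193).

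Serpina11, a liver-expressed clade A gene, had 10.48, 10.83 and 10.51 on the Alb-Cre IL-13 arrays against 10.41, 9.802, 10.18 and 9.81 with EGFP, and 11.02, 10.99 and 11.11 on the WT IL-13 arrays against 9.72, 10.31, 9.76 and 9.89 with EGFP. It rose by 0.55 ± 0.17 in Alb-Cre livers (adjusted p = 0.0287) and by 1.11 ± 0.17 in WT livers (adjusted p = 6.19e-05), and the difference did not pass the threshold (-0.56 ± 0.24, adjusted p = 0.135). The Alb-Cre call was lost in 8 of 26 other settings, among them the Eif2s3y covariate (0.45, adjusted p = 0.441).

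Serpina5, the protein C inhibitor, was close to the detection limit, with 4.31, 5.75 and 5.398 on the Alb-Cre IL-13 arrays against 4.66, 4.33, 4.49 and 4.36 with EGFP, and 5.65, 6.42 and 6.44 on the WT IL-13 arrays against 4.25, 4.44, 4.27 and 4.29 with EGFP. The Alb-Cre groups overlapped, and the WT IL-13 arrays lay above all EGFP arrays. It was detected on 2 of 3 Alb-Cre IL-13 arrays and 1 of 4 Alb-Cre EGFP arrays, and on 3 of 3 WT IL-13 arrays and 0 of 4 WT EGFP arrays. WT livers therefore gave a bound, an increase of at least 3.15-fold, which was not itself tested. For it, each EGFP array entered at the dimmest signal called detected there, or at the probe's own if brighter. The adjusted p of 3.23e-05 is limma's for the fitted change of 1.86 ± 0.26, which uses the undetected values. The Alb-Cre change was 0.69 ± 0.26 (adjusted p = 0.0765). The fitted difference of responses, -1.17 ± 0.37 (adjusted p = 0.0476), rests on those WT EGFP arrays below background, so its size is not exact, and it lost its call in 18 of 25 other settings. All these Serpina5 values come from 1 of 2 probes. The other probe was detected on 0 arrays in each group. It measured 4.22, 4.23 and 4.19 on the WT IL-13 arrays against 4.24, 4.13, 4.20 and 4.29 with EGFP.

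Serpina10 is the protein Z-dependent inhibitor of coagulation factor X in its active form. It had 12.89, 12.78 and 12.47 on the Alb-Cre IL-13 arrays against 11.94, 12.31, 12.44 and 11.998 with EGFP, and 12.25, 12.42 and 13.21 on the WT IL-13 arrays against 11.82, 12.11, 12.02 and 11.97 with EGFP. IL-13 arrays exceeded EGFP arrays in each genotype, with WT IL-13 replicate 3 the highest of all. The log2 change was 0.54 ± 0.19 in Alb-Cre livers (adjusted p = 0.0666), short of the threshold, and 0.65 ± 0.19 in WT livers (adjusted p = 0.0142), and the difference between them was -0.11 ± 0.28 (adjusted p = 0.854). Without WT IL-13 replicate 3 the WT change was 0.35 (adjusted p = 0.0915), and with the Eif2s3y covariate the Alb-Cre change turned to -0.34 (adjusted p = 0.484).

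The promoters of the tested serpins were searched for the spacings bound by STAT proteins, TTCNNNGAA and, for the spacing favoured by the IL-13 effector STAT6, TTCNNNNGAA. Each reads the same on both strands, and matches of the spacings can overlap but never coincide. TTCNNNGAA was held by 8.3% of all 32851 promoters and by 2 of the 16 tested serpins with an entry, Serpina11 and Serpinb6a. TTCNNNNGAA was held by 6.95% of promoters and by 2 of the 16, Serpina5 and Serpinb6a. A serpin counts when any of its entries holds the spacing, while the shares are per promoter, and 2 genes are too few to tell from them. The holders are 3 of the 5 serpins that rose in WT livers and have an entry, and 0 of the 7 that fell. That split was not tested. The matches, in capitals, are shown for Serpina11 and Serpina5, where they lie 51 and 163 bases before the annotated start, on the minus and plus strands of chromosome 12. A match is a description of the letters and not evidence of binding.
Serpina11, chr12:103989980-103990028: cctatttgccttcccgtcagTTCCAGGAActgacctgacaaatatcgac
Serpina5, chr12:104100930-104100979: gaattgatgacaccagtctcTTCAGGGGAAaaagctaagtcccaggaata

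Most of these genes lie in a single cluster on chromosome 12, in which RefSeq places 28 clade A genes or pseudogenes of the rule. Of them 15 had a probe and 11 were tested. In WT livers Serpina10, which rose, stands beside Serpina6, which fell by 36.9-fold. The adjacent Serpina1a, Serpina1c and Serpina1e fell, and the next tested genes in the order, Serpina11, Serpina4-ps1 and Serpina5, rose. Likeness between neighbours was not tested. The Serpina3 group ends with Serpina3n, the only tested gene of that group. Serpina3k and 12 other genes between Serpina5 and Serpina3n had no tested probe.

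**Figure D3:**
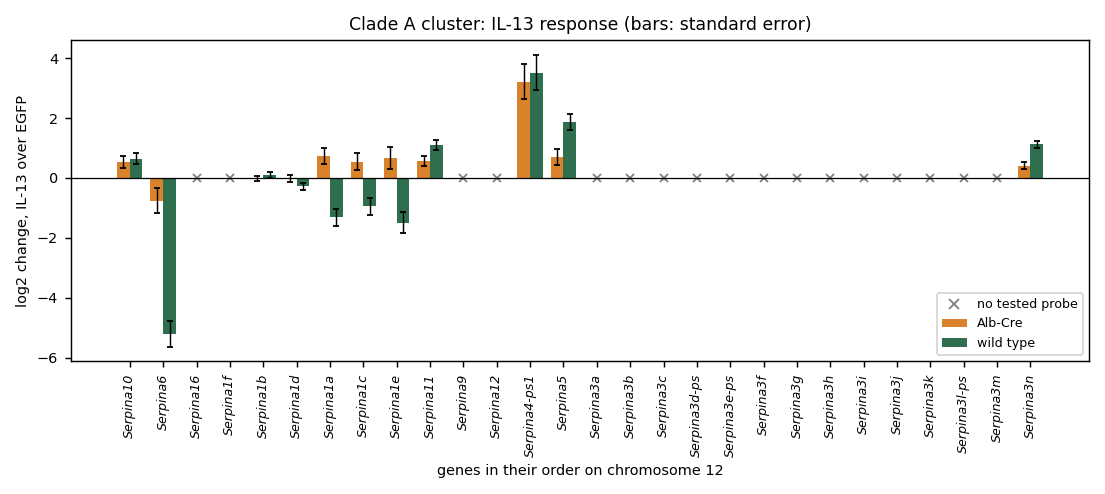
Log2 change of IL-13 over EGFP (bars, with standard error) in Alb-Cre livers (orange) and WT livers (green) for the clade A genes of chromosome 12 in their annotated order, evenly spaced. Crosses mark genes with no tested probe. In WT livers Serpina6 (-5.20), Serpina1d (-0.28, not called) and the Serpina1a, Serpina1c and Serpina1e copies point down, and Serpina10, Serpina11, Serpina4-ps1, Serpina5 and Serpina3n point up.

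Of the inhibitors of coagulation and fibrinolysis, Serpind1, Serpinc1 and Serpinf2 fell with IL-13 in WT livers, where Serpina10 and Serpina5 had risen. Serpind1, heparin cofactor II, inhibits thrombin on dermatan and heparan sulfate. It measured 10.88, 10.46 and 10.68 on the Alb-Cre IL-13 arrays against 10.903, 10.99, 10.85 and 11.21 with EGFP. The WT IL-13 arrays measured 8.31, 8.08 and 8.76, against 10.95, 11.01, 11.24 and 11.26 with EGFP. All 3 WT IL-13 arrays lay below every other array, and the Alb-Cre groups overlapped. The log2 change was -0.31 ± 0.16 in Alb-Cre livers (adjusted p = 0.186), and in WT livers Serpind1 fell by 6.62-fold (-2.73 ± 0.16, adjusted p = 1.93e-09), a difference of 2.41 ± 0.22 (adjusted p = 5.08e-06). With the Eif2s3y covariate the Alb-Cre change was called (-0.88, adjusted p = 0.0388), as was the difference (2.04, adjusted p = 8.18e-05).

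Serpinc1, antithrombin, is the main plasma inhibitor of thrombin and factor X in its active form. It had 8.04, 8.21 and 8.297 on the Alb-Cre IL-13 arrays against 8.303, 8.49, 8.57 and 8.46 with EGFP, and 8.05, 7.28 and 7.695 on the WT IL-13 arrays against 8.497, 8.68, 8.56 and 8.59 with EGFP. IL-13 arrays were below the EGFP arrays of their genotype, by little in Alb-Cre livers. The Alb-Cre change was -0.27 ± 0.14 (adjusted p = 0.212), and in WT livers the gene fell by 0.91 on the log2 scale (± 0.14, adjusted p = 0.000106). The second, dimmer probe gave -0.39 ± 0.13 in Alb-Cre livers (adjusted p = 0.0432 over all kept probes) and -0.95 ± 0.13 in WT livers. The difference of responses missed the threshold (0.63 ± 0.203, adjusted p = 0.0509).

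Serpinf2, alpha-2 antiplasmin, inhibits plasmin. It had 13.298, 12.96 and 12.89 on the Alb-Cre IL-13 arrays against 13.12, 13.19, 13.22 and 13.15 with EGFP, and 12.63, 12.83 and 12.84 on the WT IL-13 arrays against 13.23, 13.18, 13.07 and 13.03 with EGFP. The Alb-Cre groups overlapped and the WT groups did not. The Alb-Cre change was -0.12 ± 0.11 (adjusted p = 0.512), and Serpinf2 fell by 0.36 on the log2 scale in WT livers (± 0.11, adjusted p = 0.0142). The WT change was -0.48 within slide 1 (adjusted p = 0.0516) and -0.20 within slide 2 (adjusted p = 0.413). The other 2 kept probes gave -0.33 (adjusted p = 0.0359 over all kept probes) and -0.27 (adjusted p = 0.121) in WT livers.

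Serpinf1, pigment epithelium-derived factor, is a secreted non-inhibitory serpin that limits blood vessel growth. It had 13.001, 13.08 and 13.21 on the Alb-Cre IL-13 arrays against 13.51, 13.24, 13.51 and 13.45 with EGFP, and 12.69, 12.54 and 12.77 on the WT IL-13 arrays against 13.41, 13.27, 13.45 and 13.63 with EGFP. IL-13 arrays were below EGFP arrays in each genotype. The Alb-Cre change of -0.33 ± 0.11 missed the threshold (adjusted p = 0.0507). In WT livers Serpinf1 fell by 0.77 on the log2 scale (± 0.11, adjusted p = 4.26e-05), and the difference missed the threshold (0.45 ± 0.16, adjusted p = 0.0753). With slide as a block in limma both passed it, the Alb-Cre change at -0.30 (adjusted p = 0.0429) and the difference at 0.45 (adjusted p = 0.0441).

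Serping1, the C1 inhibitor of the complement and contact systems, gave no call in any comparison. It had 13.1001, 13.37 and 13.39 on the Alb-Cre IL-13 arrays against 13.13, 13.203, 13.34 and 13.11 with EGFP, and 12.899, 13.095 and 13.07 on the WT IL-13 arrays against 13.1001, 13.31, 13.08 and 13.22 with EGFP. The groups overlapped in each genotype, and the 95% interval of the log2 change ran between -0.14 and 0.32 in Alb-Cre livers and between -0.38 and 0.07 in WT livers.

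Among the intracellular clade B serpins, Serpinb6a was the member that was well above background. It encodes a cytosolic inhibitor of cathepsin G and related proteases. It measured 8.81, 8.9999 and 8.79 on the Alb-Cre IL-13 arrays against 7.83, 8.04, 7.99 and 8.28 with EGFP, and 8.96, 9.24 and 8.83 on the WT IL-13 arrays against 7.98, 8.05, 8.06 and 7.996 with EGFP. All 6 IL-13 arrays exceeded all 8 EGFP arrays. The gene rose 1.78-fold in Alb-Cre livers (log2 change 0.83 ± 0.12, adjusted p = 0.000135) and 1.98-fold in WT livers (0.99 ± 0.12, adjusted p = 8.83e-06). The difference was -0.16 ± 0.17 (95% interval -0.52 to 0.21), and the Alb-Cre increase was also called with the Eif2s3y covariate (1.10, adjusted p = 0.00544).

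Serpinb1a, an inhibitor of neutrophil elastase, cathepsin G and proteinase 3, was dim, with 4.26, 4.30 and 4.21 on the Alb-Cre IL-13 arrays against 4.31, 4.89, 5.04 and 5.05 with EGFP, and 4.33, 4.45 and 4.34 on the WT IL-13 arrays against 4.80, 4.904, 5.06 and 4.51 with EGFP. The IL-13 arrays lay below the EGFP arrays of their genotype, by a small margin. It was detected on 0 of 3 Alb-Cre IL-13 arrays and 3 of 4 Alb-Cre EGFP arrays, and on 1 of 3 WT IL-13 arrays and 4 of 4 WT EGFP arrays. In Alb-Cre livers the bound was a fall of at least 1.26-fold, which was not itself tested. The fitted change there, which uses undetected values, was -0.57 ± 0.16 (adjusted p = 0.0228), a call lost in 9 of 26 other settings. In WT livers, with 2 of the 3 IL-13 arrays not above background, the fitted change of -0.44 ± 0.16 (adjusted p = 0.0389) is not exact, and its call was lost in 13 of 26. Serpinb6b and Serpinb6c, near relatives of Serpinb6a, stayed near background, with group means between 4.34 and 4.76, and gave no call.

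Of the 48 serpins, 27 did not reach the test. They comprise 21 of clade B, including Serpinb9, the granzyme B inhibitor, and Serpinb2, plasminogen activator inhibitor 2, as well as Serpina1f, Serpina3b, Serpina9, Serpina12, Serpini1 (neuroserpin) and Serpini2. Of all members, 16 were detected on no array and 11 on 1 or 2 arrays, and the highest value of an untested member was 4.75 on the log2 scale, where the lowest detected signal of an array lay between 4.44 and 4.60. Tested without the detection filter, 0 of the 27 passed the threshold in limma for IL-13 in either genotype, and 1 and 0 had an unadjusted p under 0.05 in Alb-Cre and WT livers. RefSeq lists 68 genes of the rule, and the 20 without a probe here were not analysed here.

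The genotypes were compared directly under each plasmid. Under IL-13, 7 of the 21 serpins were higher and 3 lower in Alb-Cre than in WT livers, together 47.6%, where 21.9% of all genes were called (10.7% higher and 11.2% lower). This comparison and the difference of responses share the IL-13 arrays and are not independent. Serpina6 averaged 11.67 ± 1.36 in Alb-Cre and 7.45 ± 0.47 in WT livers (SD, n = 3 each), 18.6-fold higher in Alb-Cre (4.22 ± 0.45, adjusted p = 1.04e-05). Serpind1 averaged 10.67 ± 0.21 and 8.39 ± 0.35 in the same order of groups, 4.88-fold higher in Alb-Cre (adjusted p = 1.42e-07). The other 5 higher genes were Serpina1e (2.04), Serpina1a (1.97), Serpina1c (1.60), Serpinc1 (0.51) and Serpinf1 (0.43), given as log2 differences, and the 3 lower ones were Serpina7 (-1.95), Serpina5 (-1.02) and Serpina3n (-0.71). Serpinc1, Serpinf1 and Serpina5 lost this call in 8, 6 and 5 of 26 other settings, and the arrays of Serpinc1 and Serpina5 overlapped between genotypes. Serpina5 was detected on 2 of 3 Alb-Cre IL-13 arrays, so its value is not exact.

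The difference of IL-13 responses was called for 8 of the 21 (5 higher and 3 lower in Alb-Cre, 38.1%), where 13.2% of all genes were called (6.65% higher and 6.5% lower). Of the members detected on all arrays, 5 were higher and 2 lower, where 7.78% and 6.88% of genes so detected were. With the Eif2s3y covariate 6 of the 8 differences remained called, as did 7 of the 10 genotype differences under IL-13. Since that covariate rests on WT IL-13 replicate 3, these counts cannot show whether the differences depend on sex. Within slide 1 the difference was called for 5 members and the genotype difference under IL-13 for 7, where 2.33% and 9.49% of all genes were. On slide 1 the genotype difference under IL-13 was 3.95 for Serpina6, -1.64 for Serpina7, 2.47 for Serpind1 and -0.56 for Serpina3n. Slide 2 sets 1 Alb-Cre IL-13 array against 1 WT IL-13 array, so its differences are given as values with no replicate of either arm. They were 4.75, -2.58, 1.91 and -1.02 for the same genes. Serpina1a, Serpina1c and Serpina1e were less alike between slides, with 2.60, 2.18 and 2.65 on slide 1 and 0.71, 0.43 and 0.82 on slide 2.

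Under EGFP 0 of the 21 serpins and 0 of 9711 genes (0%) differed between Alb-Cre and WT livers in limma after adjustment, and at an unadjusted p under 0.05 there were 1 serpin and 364 genes. The serpin was Serpina7, 0.68 ± 0.17 higher in Alb-Cre (adjusted p = 1), the only member of the 21 whose EGFP arrays did not overlap between genotypes, where 2.8% of all genes did not. The median difference over the 21 members was 0.01.

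Proteases that plasma and leukocyte serpins control were taken as a list of 50 genes, of which 33 were tested. In Alb-Cre livers 6 rose and 4 fell, and in WT livers 7 rose and 11 fell, with medians of 0.05 and -0.19. Called genes were 30.3% and 54.5% of the list, where 18.9% and 40.7% of all genes were. Klkb1, plasma prekallikrein, fell by 2.78 on the log2 scale in WT livers (± 0.18, adjusted p = 9.82e-09), and Tmprss6, a hepatocyte membrane protease, had a log2 change of -1.56 (± 0.12, adjusted p = 3.79e-08). Prtn3 and Elane, neutrophil proteases (Elane is also among the neutrophil markers below) that Serpina1 and Serpinb1a products inhibit, rose in Alb-Cre livers by 2.73 ± 0.50 and 0.92 ± 0.17 (adjusted p = 0.000975 and 0.00106). A rise of Elane was called in WT livers as well, as for all 4 tested neutrophil markers, and for 0 of the 4 was a difference of responses called. The WT value of Prtn3 is not given here. Ctss, a lysosomal cathepsin, rose in Alb-Cre livers by 0.78 ± 0.12 and in WT livers by 1.36 ± 0.12.

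Cofactors and receptors of serpins were a list of 21 genes with 18 tested. In Alb-Cre livers 4 rose and 3 fell, and in WT livers 6 rose and 6 fell, together 38.9% and 66.7%, where 18.9% and 40.7% of all genes were called. Hs3st1, the sulfotransferase that makes the antithrombin-binding form of heparan sulfate, rose by 2.72 ± 0.22 in Alb-Cre livers and 3.66 ± 0.22 in WT livers (adjusted p = 2.65e-07 and 3.68e-09). Proz, protein Z, the cofactor of the Serpina10 product, fell by 1.70 in WT livers (± 0.17, adjusted p = 1.00e-06), where Serpina10 itself had risen.

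Protease inhibitors of other families were a list of 44 genes, 31 of them tested. In Alb-Cre livers 6 rose and 3 fell, and in WT livers 15 rose and 7 fell, with medians of 0.06 and 0.38. Together these were 29% and 71% of the list, against the same 18.9% and 40.7% of all genes. Wfdc17 and Wfdc3, of the whey acidic protein family, rose in WT livers by 2.70 ± 0.21 and 2.07 ± 0.13 (adjusted p = 5.58e-08 and 6.37e-09), and their responses differed between genotypes by -2.62 and -1.62 (adjusted p = 3.30e-05 and 3.83e-05). Wfdc1 fell in Alb-Cre livers (log2 change -1.58 ± 0.16, adjusted p = 3.15e-06). Of 27 tested acute phase genes 5 rose and 0 fell in Alb-Cre livers, and 16 rose and 1 fell in WT livers (18.5% and 63% called). Of 16 tested liver regulators, the factors that drive hepatocyte genes, 1 rose and 5 fell in Alb-Cre livers, and 0 rose and 10 fell in WT livers (37.5% and 62.5% called).

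Markers of cell types were also read, without a test of whether they follow the serpins. Over all genes, 11.1% were called higher and 7.83% lower in Alb-Cre livers, and 21.5% and 19.2% in WT livers. The marker lists hold few genes, and their counts were not tested against those shares. Of the 5 tested hepatocyte markers, 0 changed in Alb-Cre livers and 4 fell in WT livers, among them Alb, albumin (log2 change -1.56 ± 0.20). Their summed normalized intensity per array was 38199 to 43260 in Alb-Cre IL-13 livers and 41985 to 48256 in Alb-Cre EGFP livers, and 32452 to 35652 in WT IL-13 livers and 43571 to 47297 in WT EGFP livers. In whole-liver RNA, fewer hepatocytes and less RNA per hepatocyte cannot be told apart, and their part in the falls of the plasma serpins was not tested. Neutrophil markers rose for 4 of 4 tested genes in each genotype, with sums of 818 to 2024 in Alb-Cre IL-13 livers and 130.003 to 229 in Alb-Cre EGFP livers, and of 1148 to 2678 in WT IL-13 livers and 147 to 378 in WT EGFP livers, while Cxcr2 did not pass the detection filter.

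Stellate cell and fibroblast markers rose for 4 of 6 tested genes in each genotype. Col1a1, a chain of type I collagen, rose by 4.72 ± 0.27 in Alb-Cre livers and 3.98 ± 0.27 in WT livers. The stellate sums were 4513 to 6653 in Alb-Cre IL-13 livers and 2636 to 3227 in Alb-Cre EGFP livers, and 6042 to 8078 in WT IL-13 livers and 2547 to 3112 in WT EGFP livers. Of 3 tested Kupffer cell markers 0 changed in Alb-Cre livers, while in WT livers Vsig4 rose and Clec4f and Timd4 fell. Clec4f, a lectin of resident macrophages, had a log2 change of -0.07 ± 0.25 in Alb-Cre livers (adjusted p = 0.896) and -2.22 ± 0.25 in WT livers (adjusted p = 3.87e-06). Pecam1, the 1 of 5 endothelial markers that changed, rose by 1.46 in Alb-Cre and 1.32 in WT livers, and Sox9, the 1 of 2 bile duct markers that changed, rose by 0.65 and 1.45. Of 4 megakaryocyte markers 1 rose in Alb-Cre livers, and 2 rose and 1 fell in WT livers. Of 2 tested eosinophil markers 2 rose in Alb-Cre livers and 0 changed in WT livers, and of 2 tested macrophage markers 1 rose in Alb-Cre livers and 1 fell in WT livers. Of the 5 tested T or NK cell, B cell and mast cell markers, 1, of T or NK cells, fell in WT livers and 0 changed in Alb-Cre livers. Over all genes 18.9% were called in Alb-Cre livers and 40.7% in WT livers, and these small counts were not tested against that. The part of these cell types in the serpin values was not tested.

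Genes with higher expression in male mouse liver rose for 11 of 14 tested and fell for 0 in Alb-Cre livers, and rose for 4 and fell for 4 in WT livers. Their sums were 36446 to 53305 in Alb-Cre IL-13 livers and 7570.2 to 18116 in Alb-Cre EGFP livers, and 10456 to 20358 in WT IL-13 livers and 6457 to 11039 in WT EGFP livers. Genes with higher expression in female liver fell for 7 of 10 tested and rose for 0 in each genotype. Called genes were 78.6% of the male list in Alb-Cre livers and 57.1% in WT livers, and 70% of the female list in each. Of all genes 18.9% and 40.7% were called. Their part in the serpin values was not tested.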

How the data were processed

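The authors deposited, for each array, linear probe intensity values and detection p-values from GenomeStudio 2011.1 (tool and version per the submitters' processing notes). The log2 table that the authors also deposited held the same intensities after scaling by a constant for each array (4.52 to 4.85), and it served as an alternative. Other steps are not given in the sources used here. Groups came from the sample titles.

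In R 4.3.3, limma 3.58.1 (neqc) corrected the background by normexp from the detection p-values with an offset of 16, quantile-normalized the arrays and took log2. Probes with a detection p under 0.05 on at least 3 arrays were kept (14109 of 25697). The brightest kept probe stood for each of 9711 genes. limma fitted 1 mean per group over all 14 arrays (10 residual degrees of freedom) and gave 5 two-sided contrasts with a threshold of 0.05 after Benjamini-Hochberg adjustment. The fit was tested on simulated data.

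Every serpin of the rule was accounted for, with values per array for called members and key plasma serpins, and up to 3 genes with the smallest p named per list. The members and lists were chosen with earlier results of these data known. Alternatives covered normalization, detection filter, probe choice, slide, replicate block, the Eif2s3y covariate and each array left out. The titles' replicate numbers did not pair the samples: deviations correlated above 0.1 in 3 of 19 same-number pairs. The descriptions number the WT IL-13 samples 3, 4 and 3 instead, and that numbering was not used. The number of arrays limits the precision.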

Additional observations from a re-analysis of the deposited data

Results flagged for a closer look

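The IL-13 response differed between Alb-Cre and WT livers for 8 serpins by limma's test of the difference (Alb-Cre minus WT, log2 scale). It was 4.45 for Serpina6, 2.41 for Serpind1, 2.16 for Serpina1e, 2.06 for Serpina1a and 1.497 for Serpina1c. It was -2.63 for Serpina7, -1.17 for Serpina5 and -0.72 for Serpina3n. The Serpina5 value is not exact, since its probe was below background on all 4 WT EGFP arrays, and it lost its call in 18 of 25 other settings.

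An array far from the other 3 of its group was found in 2 of 42 groups of 4 tested, where chance gives about 1 in 20. Serpina7 was 6.88 on WT EGFP replicate 1, below the other WT EGFP arrays. Serpina1b was 14.202 on WT EGFP replicate 3, where the other 3 arrays were tied at 1 value by quantile normalization.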

How the results depend on the processing

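Across 26 alternatives the only called result that changed direction was the WT change of Serpina1c, which was 0.15 within slide 2, where the WT IL-13 group is replicate 3 alone and is assumed to vary like the other groups, as is the lone Alb-Cre IL-13 array there. The Alb-Cre count of 6 called serpins was 10 when only the compared groups were fitted, 3 without Alb-Cre EGFP replicate 4 and 11 without WT IL-13 replicate 3. Of all genes, 17.5%, 15.2% and 21.3% were called in those settings, in that order. The 8 differences of response were 5 within slide 1, where fewer arrays enter and 2.33% of all genes were called. The cause of the other shifts was not tested.

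With 1 array left out at a time, the counts ran between 3 and 11 (IL-13 in Alb-Cre), 13 and 17 (IL-13 in WT), 6 and 9 (difference), 7 and 10 (genotype under IL-13) and 0 and 0 (genotype under EGFP). The shares of all genes ran between 13.7% and 21.3%, 35.3% and 41%, 8.95% and 13.9%, 15.2% and 21.6%, and 0% and 0%, in that order. With the replicate number as a block the counts were 4, 17, 8, 10 and 0 in that order. The shares of all genes were then 16.8%, 39.4%, 12.8%, 21.6% and 0%. Same-numbered samples did not deviate together (correlations between -0.12 and 0.28), all by the titles' numbers. Signal near background limits Serpina5 and the clade B genes other than Serpinb6a.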
